A study of Mus musculus with 4 samples.

Results

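The atretic-like granulosa cells (GCs) described here were 2710 of the 47782 cells that passed the filters in 4 single-cell RNA-seq libraries of mouse ovary. A cell was selected on its own counts. At least 4 of the 8 genes Kcnq5, E330023G01Rik, Foxp2, Zfp385b, Rgs13, Itih5, Pid1 and Ghr had to be detected, and Inhba, the inhibin and activin subunit of antral follicles, had to stay under 10 of every 10000 UMIs of the cell (a UMI stands for 1 RNA molecule caught in the droplet). Cells with 4 or more of 7 cumulus or growing-follicle genes (Gatm, Cdh12, Itga6, Pcsk6, Adamts17, Amh, Cited1), with 2 or more of the cycling genes Top2a, Mki67, Ube2c and Prc1, or with 2 or more of the stromal genes Dcn, Col1a2, Lum and Dpp6 were left out. Each cell also needed at least 500 genes, over 1000 UMIs and under 10% mitochondrial UMIs. The 2 Fosl2F/F libraries gave 829 and 922 atretic-like cells, and the 2 libraries labelled Fosl2cKO gave 321 and 638.

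Granulosa cells surround the oocyte, convert androgen to estrogen under follicle-stimulating hormone (FSH) and supply inhibin and activin. Most follicles never ovulate and degenerate by atresia, in which granulosa cells stop dividing, lose FSH responses and die, while macrophages or neighbouring granulosa cells take up the remains. Ghr encodes the growth hormone receptor, which signals through JAK2 and STAT5 to targets such as the feedback inhibitor Socs2. Fosl2 encodes Fra-2, a partner of Jun proteins in the AP-1 transcription factor.

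All mice were 8-week-old female littermates, and the study took their ovaries at estrus. Fosl2F/F mice carry LoxP sites around exons 2 to 4 of both Fosl2 alleles and no Cre. Fosl2cKO mice carry the same floxed alleles and Cre driven by Cyp19a1, the aromatase gene, which is active mainly in granulosa cells of antral follicles. Cells that never expressed Cyp19a1 would therefore keep the floxed gene intact. As many mice were sequenced per genotype as there are libraries, but the labels do not tie a library to a mouse, so p-values measure the spread between these libraries only. The comparison of the genotypes asks how loss of Fosl2 in granulosa cells alters the makeup and expression of the ovary.

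The libraries held 120327227 to 148836173 UMIs each over 32285 genes. Fosl2F/F replicate 2 stood apart. It had 28155 barcodes where the other libraries had 8654 to 11045, and its atretic-like cells had a median of 5125.5 UMIs, against 12995 in Fosl2F/F replicate 1 and 14434 and 15096 in the libraries labelled Fosl2cKO. An exact two-sided permutation test of the 4 medians between the conditions gave p = 0.33, the smallest that 2 libraries against 2 allow. The medians of genes per cell, 3933, 2413.5, 4412 and 4547.5 in the order Fosl2F/F replicates 1 and 2 and Fosl2cKO replicates 1 and 2, gave the same p of 0.33. Scrublet called 22.8% of the atretic-like cells of Fosl2F/F replicate 2 doublets, against 3.45% to 4.98% in the other libraries. The rate was set from the number of cells in a library, and of all its cells 19.5% were called, against 5.74% to 7.03% elsewhere. Pairs of libraries shared 12 to 49 barcodes, and 0 of the atretic-like cells had a barcode in common with an atretic-like cell of another library. Every list of 4 values below follows the order given here, and levels are CPM (UMIs of a gene per 1000000 UMIs summed over the atretic-like cells of a library) unless another unit is named.

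Of the genes that chose the cells, Ghr and Itih5 had the highest ratios to the other granulosa cells, so the bases before an annotated start of Ghr are shown here, beside those of Itih5, which encodes a hyaluronan-binding matrix protein. Capitals mark a match to the AP-1 motif TGANTCA on either strand, where N is any base. Both are the 250 bases before a RefSeq transcript start on GRCm38.p6, written along the strand of the gene. That of Ghr lies at chr15:3581843-3582092 on the minus strand and that of Itih5 at chr2:10153293-10153542 on the plus strand, and neither overlapped an annotated exon.
Ghr: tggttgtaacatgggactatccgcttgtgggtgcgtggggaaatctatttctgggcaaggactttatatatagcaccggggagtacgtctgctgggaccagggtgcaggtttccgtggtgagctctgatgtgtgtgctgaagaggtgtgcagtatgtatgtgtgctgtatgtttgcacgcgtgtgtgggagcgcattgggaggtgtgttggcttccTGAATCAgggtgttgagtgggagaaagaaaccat
Itih5: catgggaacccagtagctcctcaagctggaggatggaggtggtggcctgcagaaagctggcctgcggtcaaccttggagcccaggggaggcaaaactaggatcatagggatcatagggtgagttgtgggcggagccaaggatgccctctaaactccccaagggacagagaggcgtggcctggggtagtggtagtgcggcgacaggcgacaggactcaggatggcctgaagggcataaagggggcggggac
The Ghr window held TGAATCA, starting 34 bases before the start site, and the Itih5 window held no match. A further Ghr promoter in the table, which overlapped an annotated exon and is not shown, held none either. Among 32851 promoters of this length 2217 held the AP-1 motif (6.75%) and 1040 the forkhead motif GTAAACA on either strand (3.17%). Of 26 genes (the 8 that selected the cells, Pik3ip1, Ccn2 and those of highest ratio described later), 19 were matched in the table by symbol with 29 promoters, of which 3 held the AP-1 motif (Cald1, Ghr and Zfp385b) and 2 the forkhead motif (Cald1 and Selenop). A match describes letters only.

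Ghr lies on chromosome 15 from 3317760 to 3583492 (GRCm38, minus strand). Its level in the atretic-like cells was 1215, 326, 483 and 717 CPM, against 125, 37.9, 57.8 and 129 CPM in the other granulosa cells of the same libraries. The highest library was Fosl2F/F replicate 1 and the lowest Fosl2F/F replicate 2, so the control libraries enclosed both libraries labelled Fosl2cKO. Since Ghr helped to choose the cells, this contrast is a description, as is every contrast with unselected cells here. After each cell was thinned to 2000 UMIs, Ghr was detected in 49.2% ± 12.6 of the atretic-like cells (SD, n = 4 libraries), 7.2% ± 3.8 of mural-like GCs, 5.8% ± 1.4 of cumulus-like GCs and 4.7% ± 1.6 of the cells in the larger of 2 immune clusters (2134 cells, led by the macrophage genes Lyz2 and C1qa, and called the macrophage-marker cluster below). The unselected cells of the cluster that held most atretic-like cells came nearer, with Ghr in 32.0% ± 13.2 after thinning and at 666, 258, 426 and 294 CPM. Without thinning, 63.7% to 89.6% of the atretic-like cells had a Ghr UMI. Stromal cells reached 51.1% ± 4.2, a share about as high as that of the atretic-like cells.

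Of the other genes that chose the cells, Pid1, which encodes a phosphotyrosine-binding adaptor of insulin signalling, stood at 586, 223, 148 and 320.4 CPM. The other granulosa cells held 85.4, 28.1, 25.4 and 105 CPM of Pid1. Itih5 was at 384, 174, 178 and 148 CPM, against 42.5, 24.2, 26.1 and 30.9 CPM. For both genes Fosl2F/F replicate 1 was far above the other libraries. Foxp2, a forkhead transcription factor, reached 576, 403, 769 and 683 CPM, and was detected after thinning in 58.9% ± 1.9 of the atretic-like cells and 37.2% of mural-like GCs. Kcnq5, a voltage-gated potassium channel, stood at 1640.0, 1223, 1732 and 2004 CPM, against 585, 551, 647 and 1170.2 CPM in the other granulosa cells. Zfp385b, a zinc finger protein, was at 861, 593, 405 and 969 CPM and Rgs13, a regulator of G-protein signalling, at 81.6, 30.2, 16.9 and 62.8 CPM. The noncoding RNA E330023G01Rik had 113, 60.8, 40.4 and 87.4 CPM. Ghr and Itih5 were thus at least 4.65 times their level in the other granulosa cells in every library, while Kcnq5, Foxp2, Zfp385b and Rgs13 came as low as 1.32 to 1.79 times. Mural-like GCs held 87.1, 15.1, 11.8 and 40.3 CPM of Rgs13, above the atretic-like cells in Fosl2F/F replicate 1. Unselected cells of the cluster that held most atretic-like cells had a Foxp2 UMI in 58.7% ± 7.6 after thinning. They had Kcnq5 in 84.7% and Zfp385b in 67.5%, against 77.5% and 61.5% of the atretic-like cells. Pid1 and Itih5 were lower there, in 27.8% and 18.8% against 38.5% and 32.6%, and Rgs13 and E330023G01Rik slightly lower. Pid1 and Itih5 are also genes of other cell types, with a Pid1 UMI in 64.9% of the cells of the macrophage-marker cluster and an Itih5 UMI in 65.9% of stromal cells after thinning.

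Ccn2 and Pik3ip1 did not take part in the selection, though the study labels both for atretic cells. Those labels were drawn from these same libraries, so the levels of both genes are a description and no separate support for the name. Ccn2 encodes connective tissue growth factor, a target of YAP and TAZ, and stood at 227, 62.8, 54.3 and 133 CPM, against 48.1, 18.6, 22.9 and 43.9 CPM in the other granulosa cells. Pik3ip1 encodes an inhibitor of phosphatidylinositol 3-kinase and stood at 139, 62.5, 87.2 and 89.5 CPM, against 24.1, 19.3, 19.5 and 23.5 CPM. For both genes the lowest atretic-like library lay above the highest library of the other granulosa cells. A Pik3ip1 UMI was found after thinning in 17.8% ± 4.3 of atretic-like cells, 3.3% of mural-like GCs and 1.3% of the macrophage-marker cluster. Unselected cells of the cluster that held most atretic-like cells, described below, stood closer. They had 175, 97.9, 65.1 and 83.0 CPM of Ccn2 and 74.2, 86.3, 94.7 and 37.1 CPM of Pik3ip1. For both genes they were above the atretic-like cells in Fosl2F/F replicate 2 and Fosl2cKO replicate 1. A Pik3ip1 UMI was found after thinning in 13.1% ± 3.5 of them, against 17.8% of the atretic-like cells.

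**Figure D1:**
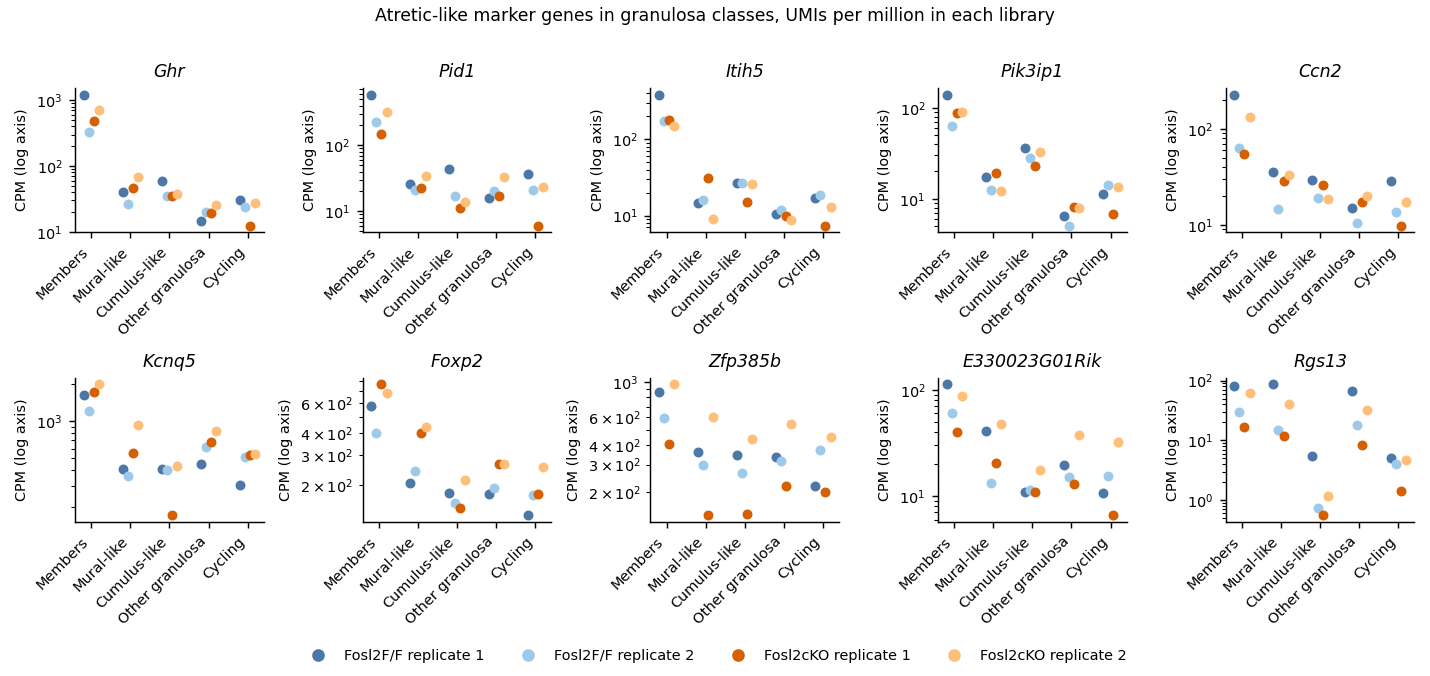
Level of 10 marker genes in the atretic-like cells (Members) and 4 other granulosa classes, in CPM on a log axis. Here "Other granulosa" is 1 further granulosa cluster, not all unselected granulosa cells. The unselected cells of the cluster that held most atretic-like cells, which came nearer, are not plotted. Each point is 1 library. In every library Ghr, Itih5 and Pik3ip1 of the atretic-like cells stand well above the 4 classes plotted, while Kcnq5, Foxp2 and Zfp385b differ less.

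The atretic-like cells were set beside the clusters of all cells, which were formed without the selection rule, though from the same counts. Of the 2710 atretic-like cells, 2074 (76.5%) lay in granulosa clusters, or 87.1%, 65.4%, 72.6% and 80.9% of those in each library. A single cluster of 3269 cells held 1763 of them. Its leading genes included Kcnq5, Ccn2, Col9a2, Zfp385b, Foxp2, Derl3 and Prss23. Since Kcnq5, Zfp385b and Foxp2 also chose the cells, the overlap is a description and no check of the label. The other 1506 cells of that cluster failed the rule mainly because 2 or more cycling genes were detected (868 cells, 57.6%). Outside the granulosa clusters, 221 atretic-like cells (8.15%) lay in clusters that scored highest for luteal markers, 106 in pericyte or smooth muscle clusters, 80 in a cluster made mostly of doublet calls, 73 in stroma, 44 in endothelium, 43 in immune and 32 in theca clusters. Of the 80 in the doublet cluster, 67 came from Fosl2F/F replicate 2.

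**Figure D2:**
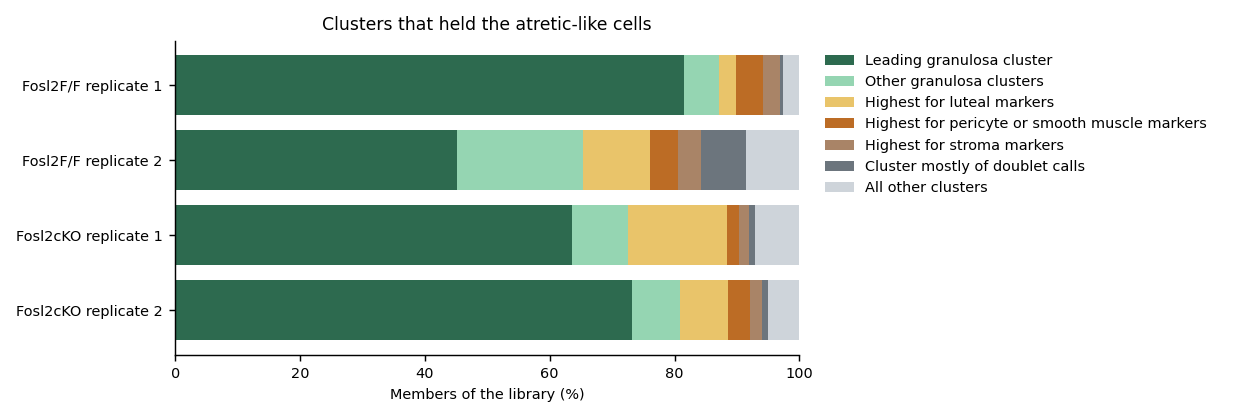
Share of the atretic-like cells of each library (percent, stacked to 100) by the kind of cluster that held them. Granulosa clusters, in green, held 87.1%, 65.4%, 72.6% and 80.9% from top to bottom.

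Cells outside the granulosa clusters had another expression profile. Scrublet called 16.8%, 56.1%, 15.9% and 13.1% of them doublets, against 2.77%, 5.14%, 0.858% and 1.16% of those inside. The part of doublets in this profile was not tested. Cyp11a1, the enzyme that makes pregnenolone from cholesterol, reached 3826, 4136, 3946 and 3014 CPM outside, against 48.2, 233, 135 and 49.2 CPM inside. Sfrp4, a secreted Wnt antagonist, was at 3099, 879, 215 and 600 CPM outside, and at 19.4, 53.2, 6.16 and 6.35 CPM inside. Inha, the inhibin alpha subunit, ran the other way, with 628, 962, 562 and 571 CPM outside and 2238, 2867, 2739 and 2847 CPM inside. Esr2, the estrogen receptor of granulosa cells, stood at 90.1, 157, 27.0 and 83.2 CPM outside and at 532, 512, 543 and 615 CPM inside. Ghr was present on both sides, with 267, 226, 187 and 295 CPM outside and 1361, 425, 659 and 826 CPM inside. Not every granulosa gene was lower outside, since Foxl2, a forkhead factor of granulosa cells, stood at 49.6, 60.7, 40.7 and 77.1 CPM there and at 32.2, 41.7, 40.3 and 52.9 CPM inside. The granulosa part of the label rests on the clusters of the 76.5% inside. Inha, Esr2 and Foxl2 were among the genes by which clusters were classed as granulosa, so they give it no separate support. Whether the follicles of the cells inside were atretic was not measured.

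The number of marker genes detected tracked this split. Marker genes also led the granulosa cluster that held most of these cells, so this is a description and no support for the split. Exactly 4 of the 8 genes were found in 810 cells, of which 51.7% lay in granulosa clusters, and 8 of 8 were found in 287 cells, of which 97.2% did. Just outside the rule, 1810 cells met every other criterion with 3 marker genes, and 36.1% of those lay in granulosa clusters. From cells with 4 marker genes to cells with all 8, all libraries pooled, Esr2 went from 170 to 641 CPM, Fshr, the FSH receptor, from 142 to 440.0 CPM, Ccn2 from 31.5 to 247 CPM and Pik3ip1 from 27.7 to 167 CPM. Over the same steps Cyp11a1 went from 2683 to 111 CPM, Star, which carries cholesterol into mitochondria, from 377 to 12.8 CPM, and Lhcgr, the luteinizing hormone receptor, from 395 to 21.0 CPM. Granulosa genes did not all go up, as Foxl2 went from 61.0 to 29.9 CPM and Amh, anti-Mullerian hormone of growing follicles, from 119 to 63.3 CPM. Amh is among the genes by which the rule left out cells. The libraries did not contribute evenly, as 425 of the 810 cells with 4 marker genes came from Fosl2F/F replicate 2 and 161 of the 287 with all 8 from Fosl2F/F replicate 1. Within each library the first 7 of these genes moved the same way as in the pool, though Fshr by little in 2 of them, from 147, 123.4, 90.2 and 219 CPM to 342, 133, 115 and 712 CPM. Only 17 and 14 cells had all 8 in Fosl2F/F replicate 2 and Fosl2cKO replicate 1. Cells with all 8 were also deeper in every library, and the part of depth was not tested.

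Genes of the highest ratio of atretic-like to other granulosa cells fell into 2 sets. The first kept a ratio above 1 in all 4 libraries when cells outside the granulosa clusters were left out. It comprised Ghr, Itih5, Gpc6, Cald1, Pik3ip1, Gpx3, Naaladl2, Cped1, Selenop, Tagln, Sorbs2, Acta2 and S100a6. S100a6 stayed above 1 only narrowly in Fosl2F/F replicate 1. It came from 488, 469, 455 and 76.4 CPM over all atretic-like cells to 45.8, 186, 36.4 and 39.3 CPM within granulosa clusters. The other granulosa cells held 43.2, 95.8, 24.6 and 15.4 CPM of it. Cald1, an actin-binding regulator of contraction, stood at 305, 315, 660.4 and 373 CPM, against 40.0, 61.5, 71.6 and 77.7 CPM. Gpc6, a cell-surface heparan sulfate proteoglycan, stood at 224, 151, 285 and 181 CPM, against 43.6, 33.1, 30.6 and 43.1 CPM. Gpx3, the extracellular glutathione peroxidase, stood at 229.8, 243, 331 and 249 CPM, against 39.6, 38.2, 27.5 and 35.7 CPM. For Cald1, Gpc6 and Gpx3 the lowest atretic-like library lay above the highest library of the other granulosa cells.

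The second set comprised Sfrp4, Gm2a, Cemip, Star, Abcb1b and Runx2, and its ratio did not stay above 1 in every library within granulosa clusters. Runx2, a transcription factor of ovulating follicles and corpus luteum, had 102, 592, 294 and 174 CPM over all atretic-like cells, but 4.81, 42.0, 19.0 and 12.9 CPM within granulosa clusters, beside 12.01, 35.1, 17.8 and 17.0 CPM in the other granulosa cells. Star followed the same course, from 72.4, 269, 269.7 and 72.3 CPM to 6.72, 37.3, 20.1 and 9.89 CPM. The 10 genes of lowest ratio were all genes of the cell cycle (Ube2c, Top2a, Kif11, Tpx2, Prc1, Ccna2, Bub1, Ccnb1, Pbk and Mki67), 4 of which the rule itself had used. Kif11, a mitotic spindle motor not named in the rule, stood at 6.43, 10.0, 11.1 and 9.71 CPM, against 71.8, 101, 111 and 104 CPM. The rule left out cells by their cycling genes, and the other granulosa cells kept such cells. Low levels of Kif11 and the rest of these genes are therefore no evidence apart from the selection.

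**Figure D3:**
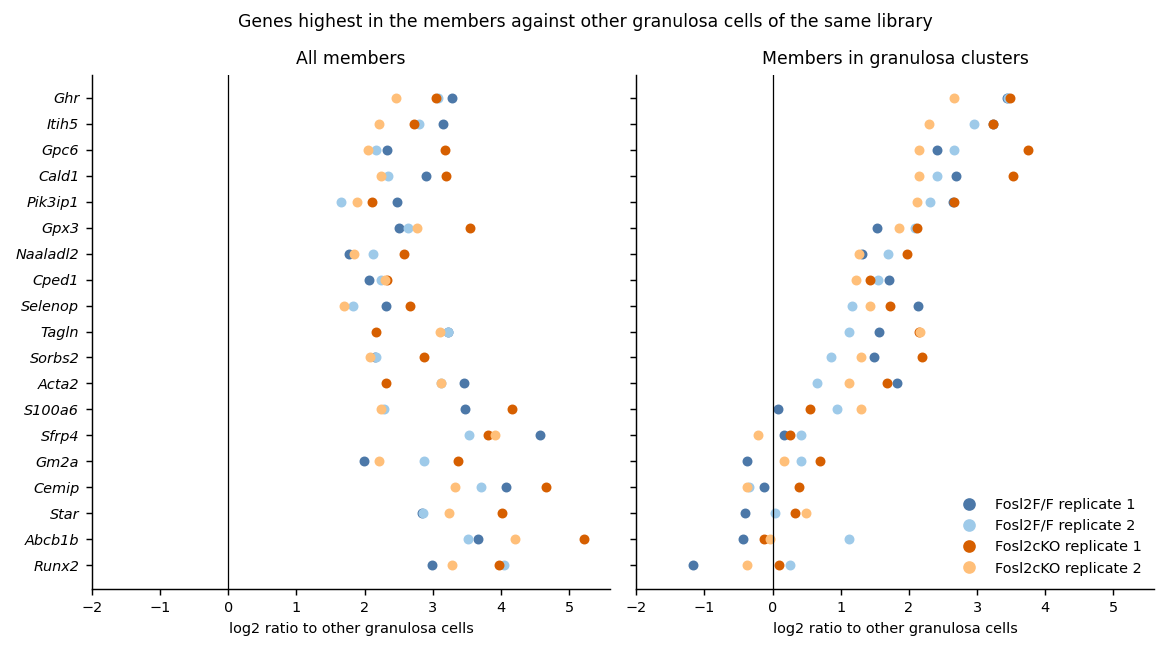
19 of the 20 genes highest in the atretic-like cells against the other granulosa cells of their library, as log2 ratios of CPM with 1 added to each, for all atretic-like cells (left) and for those in granulosa clusters (right). Each point is 1 library, and Sfrp4, Gm2a, Cemip, Star, Abcb1b and Runx2 reach 0 or below in at least 1 library on the right.

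Across 5 granulosa classes in 4 libraries (20 points, 5813 genes), the genes whose CPM ranked most like that of Ghr were Ccn2 (Spearman's rho 0.920), Tgfbr3 (0.914), Ccbe1 (0.895), Rsu1 (0.893) and Ypel3 (0.892). The points share libraries and depth, so these values describe likeness only. Tgfbr3, the betaglycan co-receptor for TGF-beta and inhibin, stood at 254, 179, 227 and 207 CPM, against 95.3, 57.4, 73.6 and 88.4 CPM in the other granulosa cells. Ccbe1, a matrix protein of lymphatic growth, stood at 193, 178, 313 and 241 CPM, against 121, 113, 131 and 145 CPM.

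Of 11926 genes at or above 5 CPM in the atretic-like or the other granulosa cells, 2750 (23.1%) were higher in the atretic-like cells of all 4 libraries and 3541 (29.7%) lower, with a median log2 ratio of -0.03. The gene lists that follow are read beside those shares. Of the FSH response and steroidogenesis list, 14 of 21 genes were lower in all 4 libraries and 2 higher, with a median of -0.50, and of -0.77 within granulosa clusters. Inhba, which the rule limited, was among the lower genes by selection. The part of that limit in the levels of the other genes was not tested. Inha stood at 2024, 1918, 1929.7 and 2382 CPM, against 8085, 4694, 4109 and 4118 CPM in the other granulosa cells. Nr5a2, the nuclear receptor LRH-1 that drives steroidogenic genes, was at 1035, 938, 703 and 1203 CPM, against 1346, 1014, 823 and 1211 CPM, but within granulosa clusters at 1153, 1156, 955 and 1447 CPM, higher than the other granulosa cells in all but Fosl2F/F replicate 1. Cyp19a1, aromatase, stood at 5.21, 4.72, 4.57 and 5.05 CPM, against 249, 60.7, 35.5 and 51.1 CPM. The other granulosa cells include mural-like GCs at 429, 165, 77.6 and 157 CPM. Cumulus-like GCs were as low in Cyp19a1, at 5.28, 10.4, 4.34 and 3.02 CPM, and lower than the atretic-like cells in Inha, at 1717, 1732, 1108 and 1462 CPM. Cyp11a1, one of the 2 higher genes, had 551, 2178, 1551 and 655 CPM over all atretic-like cells and came to 48.2, 233, 135 and 49.2 CPM within granulosa clusters. Hsd3b1, which makes progesterone from pregnenolone, overlapped between the classes at 354, 1466, 1327 and 980.5 CPM, against 1507, 875, 992 and 943 CPM.

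The granulosa identity list was lower for 9 of 11 genes in all 4 libraries and higher for 0, with a median of -0.66. Inhbb, the inhibin beta B subunit, named here after its values were seen, stood at 38.3, 127, 78.1 and 135 CPM, against 1020.2, 642, 673 and 780.0 CPM. Hsd17b1, which completes estradiol synthesis and was named on the same footing, stood at 250.4, 261, 288 and 273 CPM, against 1500.3, 797, 932 and 805 CPM. The level of both genes in every atretic-like library lay under the lowest library of the other granulosa cells. Esr2 and Wt1 were the genes of the list with no common direction. Within granulosa clusters Esr2, at the levels given above, exceeded the 287, 322, 352 and 430 CPM of the other granulosa cells in each library. Fshr there stood at 386, 237, 137 and 613 CPM, against 583, 206, 129 and 535 CPM, higher in all but Fosl2F/F replicate 1. All 11 genes were detected in each library, with a summed level of 4919 to 6531 CPM.

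In the PI3K and FoxO list, 15 of 21 genes were higher in all 4 libraries and 1 lower, with a median log2 ratio of 0.45, and of 0.49 within granulosa clusters. Txnip, which binds thioredoxin and limits glucose uptake, stood at 780.1, 523, 678 and 780.0 CPM, against 467, 414, 376 and 561 CPM. Klf9, a Kruppel-like transcription factor, stood at 185, 202, 212 and 220.4 CPM, against 81.3, 103, 109.6 and 146 CPM. Foxo1 itself, the forkhead factor restrained by FSH through Akt, stood at 1006, 702, 477 and 1034 CPM, against 932, 537, 541 and 995 CPM, and Pik3r1, the regulatory subunit of the kinase, at 347, 138, 259 and 260.1 CPM, against 167, 166, 175 and 191 CPM. Neither of the last pair kept 1 direction in all 4 libraries, but within granulosa clusters Foxo1 stood at 1108, 935, 607 and 1209 CPM, above the other granulosa cells in each. Mural-like GCs held 1260, 788, 894 and 1403 CPM of Foxo1, above those values in all but Fosl2F/F replicate 2. Cumulus-like GCs held less, at 274, 285, 282 and 382 CPM.

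Of the clearance, lysosome and autophagy list, 15 of 24 genes were higher in all 4 libraries and 2 lower, with a median of 0.53, and of 0.35 within granulosa clusters. Elmo1, which links engulfment receptors to Rac, stood at 347, 535, 441 and 425 CPM, against 217, 161, 201 and 208 CPM. Clu, the secreted chaperone clusterin, stood at 432, 633, 703 and 445 CPM, against 312, 246, 340.0 and 159 CPM. In Fosl2F/F replicate 1 its level within granulosa clusters was 235 CPM, below that of the other granulosa cells. Sqstm1, the autophagy receptor p62, stood at 217, 462, 581 and 340.1 CPM, against 215, 304, 303 and 216 CPM. Ctsl, the lysosomal protease cathepsin L, stood at 3796, 1902, 1665 and 3592 CPM, against 2423, 1961, 1645 and 3529.7 CPM.

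The apoptosis list did not share this direction, as 5 of 29 genes were higher in all 4 libraries and 12 lower, with a median of -0.16. Bax, which permeabilises the mitochondrial outer membrane, stood at 196, 183, 146 and 158 CPM, against 210.4, 158, 154 and 168 CPM. Cycs, cytochrome c, stood at 142, 133, 94.6 and 144 CPM, against 287, 199, 194 and 241 CPM, and Trp53 at 153, 151, 167 and 189 CPM, against 173, 203, 241 and 223 CPM. Casp6, an executioner caspase, overlapped between the classes at 75.2, 69.0, 82.8 and 73.1 CPM, against 60.1, 62.5, 87.9 and 62.9 CPM. The cell cycle inhibitor and senescence list split, with 5 of 11 genes higher and 4 lower (median 0.41, and -0.16 within granulosa clusters). Cdkn1b, the p27 inhibitor, stood at 63.9, 183, 172 and 114 CPM, against 59.98, 98.7, 96.5 and 66.3 CPM. Within granulosa clusters it stood at 49.0, 85.2, 94.9 and 61.5 CPM, below the other granulosa cells in every library.

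In the growth hormone and IGF list, 7 of 17 genes were higher in all 4 libraries and 2 lower, with a median of 0.11 (-0.02 within granulosa clusters). Ghr, the receptor, was among the higher genes by selection. Socs2 was among the lower, at 396, 383, 312 and 425 CPM against 1023, 840.0, 728 and 733 CPM in the other granulosa cells. Every atretic-like library held less Socs2 than any library of the other granulosa cells. Socs3, a related inhibitor, stood at 95.3, 186, 300.0 and 158 CPM, against 67.0, 87.3, 99.0 and 67.0 CPM. Igf1r, the IGF1 receptor, stood at 989, 846, 735 and 946 CPM, against 771, 912, 904 and 972 CPM, with no common direction. Within granulosa clusters it stood at 1067, 951, 912 and 1059 CPM, above the other granulosa cells in each library, in Fosl2cKO replicate 1 by little.

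The Hippo and CCN list was higher for 9 of 15 genes and lower for 1 (median 0.25). Its matricellular member Ccn1 stood at 624, 288, 678 and 384 CPM, against 192, 113, 178 and 142 CPM, whereas the coactivators and their partner overlapped. Wwtr1, or TAZ, stood at 476, 449.6, 593 and 433 CPM, against 315, 530.2, 578 and 375 CPM. Tead1, the DNA-binding partner, stood at 189, 214, 268 and 211 CPM, against 131, 245, 269 and 171 CPM. Yap1 was lower in each library, at 91.3, 139, 158 and 119 CPM against 123.3, 142, 164 and 128 CPM. In the activin, TGF-beta and BMP list 11 of 26 genes were higher and 5 lower (median 0.19). Bmpr1b, a BMP receptor of granulosa cells, stood at 1719, 1138, 1484 and 1756 CPM, against 1249.6, 1069.8, 1379 and 1559 CPM. Mural-like GCs held 1406, 1330, 2082 and 1919 CPM of Bmpr1b, above the atretic-like cells in all but Fosl2F/F replicate 1. Bmpr2, the type II receptor, overlapped at 917, 801, 894 and 1157 CPM, against 998, 806, 825 and 1027 CPM.

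The AP-1 and immediate early list was higher for 8 of 13 genes in all 4 libraries and lower for 0 (median 0.46, and 0.34 within granulosa clusters). Fos stood at 2587, 2488, 2965 and 2381 CPM, against 2103, 2066, 1706 and 1672 CPM in the other granulosa cells. Fosb stood at 1339.9, 1397, 1550.2 and 1622 CPM, against 1186, 935, 886 and 1134 CPM. Jun was slightly lower in Fosl2F/F replicate 1 and higher in the other libraries, at 1529.7, 2032, 2345 and 2106 CPM against 1541, 1522, 1335 and 1623 CPM. Mural-like GCs held 1689, 1645, 1609 and 1362 CPM of Fosb, above the atretic-like cells in all but Fosl2cKO replicate 2. Their Fos (2607, 2563, 2207 and 1657 CPM) and Jun (2067, 2055, 1938 and 1880 CPM) were above the atretic-like cells in both Fosl2F/F libraries and below in the others. Such genes also respond to tissue dissociation, whose part was not tested. The matrix list, with 13 of 19 genes higher and 4 lower, had a median of 1.01 over all atretic-like cells and of 0.06 within granulosa clusters. Itih5 was among its higher genes by selection. Sparc, a collagen-binding matricellular protein, stood at 274, 667, 674 and 295 CPM and came to 58.4, 197, 178 and 113 CPM within granulosa clusters, beside 120.1, 140.1, 136 and 85.9 CPM in the other granulosa cells. Lama1, a laminin chain of basement membrane, was lower in each library, at 339, 314, 341 and 297 CPM against 357, 636, 681 and 434 CPM.

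Of the inflammation and NF-kB list, 8 of 22 genes were higher and 1 lower, with a median of 0.24 that came to -0.18 within granulosa clusters. Nfkbia, the inhibitor of NF-kB, stood at 396, 519, 785 and 569.6 CPM, against 581, 675, 797 and 509 CPM. Oxidative phosphorylation genes were lower for 48 of 77 and higher for 1, with a median of -0.19, and the 13 mitochondrially encoded genes had a median of 0.03, with 4 higher and 1 lower. Atp5a1, the ATP synthase alpha subunit, stood at 497, 454, 452 and 514 CPM, against 621, 480.2, 536 and 570.1 CPM. The mitochondrial share of UMIs had medians of 3.71%, 3.11%, 3.04% and 3.23% in the atretic-like cells and did not separate the conditions (exact permutation test, p = 0.667).

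**Figure D4:**
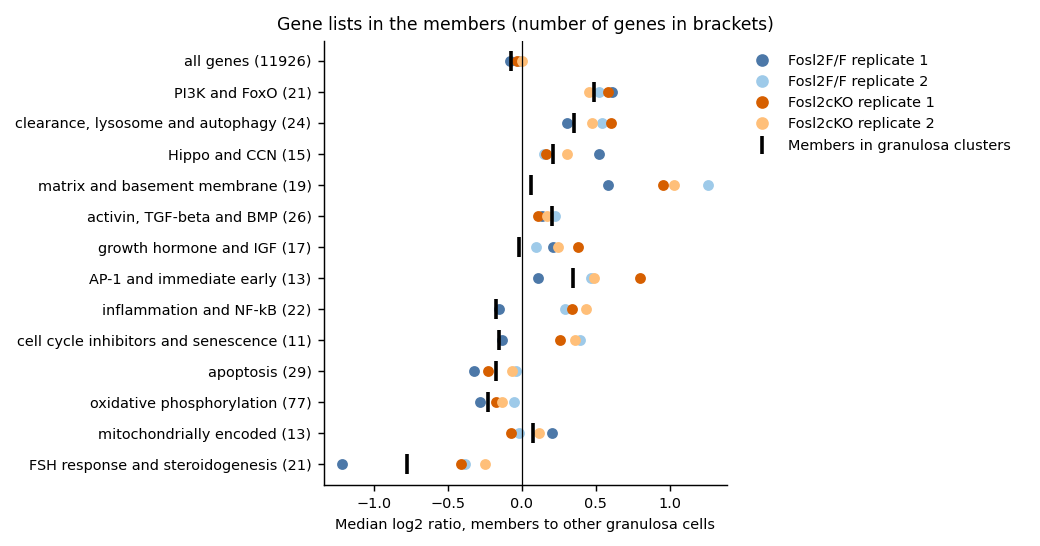
Median log2 ratio of the genes of each list, atretic-like to other granulosa cells of the same library, with the number of genes at or above 5 CPM in brackets. Points are libraries and black bars are the atretic-like cells of granulosa clusters only, where the matrix, inflammation and senescence medians move to 0.06, -0.18 and -0.16.

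Markers of other cell types were present in the atretic-like cells. The 5 luteal markers summed to 882, 2668, 1924 and 801 CPM, with 0 of them undetected, and 3 of 5 were above the other granulosa cells in every library (median log2 ratio 2.74). Within granulosa clusters that median was -0.22. The pericyte or smooth muscle markers summed to 271, 357, 132 and 185 CPM, the endothelial markers to 27.9, 182, 88.4 and 71.1 CPM, and the immune markers to 61.9, 174, 173 and 62.6 CPM. Each of these 4 lists was highest in Fosl2F/F replicate 2, the library with most doublet calls, though the immune sum only by little (174 against 173 CPM). Surface epithelium markers, 4 of 5 above the other granulosa cells in every library, were not highest there. Their median log2 ratios were 0.95, 2.01, 2.96 and 2.47, and the median within granulosa clusters was 0.07. The part of doublets in these values was not tested. Values within granulosa clusters can be set beside those over all atretic-like cells.

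The share of atretic-like cells did not differ between the conditions beyond the spread of the libraries. Of the cells kept they made up 9.44% (95% Wilson interval 8.85% to 10.1%) and 3.79% (3.56% to 4.04%) in Fosl2F/F mice, and 4.47% (4.02% to 4.98%) and 8.50% (7.89% to 9.15%) where the label was Fosl2cKO. The means were 6.62% ± 3.996 and 6.49% ± 2.85 (SD, n = 2 each), a difference of -0.13 percentage points (exact two-sided permutation test, p = 1; no p under 0.33 is possible here). Of granulosa cells, those within granulosa clusters made up 15.1%, 8.69%, 10.8% and 21.5%, a difference of 4.25 points (exact permutation test, p = 0.667). With each cell thinned to 5000 UMIs before the rule was applied, the shares were 12.4%, 4.25%, 4.19% and 11.03% (difference -0.73 points, exact permutation test, p = 0.667). Fosl2F/F replicate 1 had the highest share and replicate 2 the lowest on the first of these scales, and without replicate 1 the difference became 2.70 points.

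Fosl2, on chromosome 5 from 32135801 to 32157842 (plus strand), stood at 173, 233, 254 and 166 CPM in the atretic-like cells. The ranges of the conditions overlapped almost wholly, with a log2 fold change of -0.02 ± 0.26 (SE) in the libraries labelled Fosl2cKO. The count of a gene does not separate the floxed exons from the rest of the transcript, so this value does not test the deletion, and the labels are used here as given. Cyp19a1, which drives the Cre, was at 4.57 to 5.21 CPM in the 4 libraries.

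Of 14046 genes tested between the conditions in the atretic-like cells, 1 passed (0.00712%) in the edgeR quasi-likelihood test of 2 libraries against 2, where passing took a log2 fold change over 0.25 in size with an adjusted p under 0.1, and 506 had an unadjusted p under 0.05. That gene was Plb1, which encodes a membrane phospholipase B and lies 74865 bases beyond Fosl2 on chromosome 5, from 32232708 to 32366520 on the same strand. The Fosl2F/F libraries held 3 and 2 Plb1 UMIs and the libraries labelled Fosl2cKO 4417 and 5042, or 0.261, 0.295, 777 and 489.8 CPM. Pooled over the libraries this was a ratio of 2165 (95% counting interval 927 to 6668). Plb1 rose by 10.998 ± 0.47 (SE) on the log2 scale, with an adjusted p of 0.00940 in edgeR. Within granulosa clusters its levels were 0, 0, 706 and 279 CPM. Pooled over both libraries labelled Fosl2cKO, that was 1821 times the level that 3 counts over both Fosl2F/F libraries would give. The adjusted p of Plb1 there was 0.120 in edgeR. Its log2 fold change ran from 10.65 to 11.27 when 1 library was left out. Without Fosl2F/F replicate 1 the adjusted p was 0.192 and no gene passed, while 3 genes passed without Fosl2cKO replicate 1 and 2 without Fosl2cKO replicate 2. Each of these fits has 1 library on one side, which is assumed to vary like the other condition.

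Plb1 was not particular to the atretic-like cells. In mural-like GCs it stood at 0.083, 0.180, 1816 and 694 CPM (edgeR, adjusted p = 0.00472), where it was 1 of 2 genes past the threshold out of 12812 (0.0156%). In cumulus-like GCs 45 of 13482 genes passed (0.334%), Plb1 among them at 67.5 and 41.3 CPM in the libraries labelled Fosl2cKO (edgeR, adjusted p = 5.02e-07). Plb1 was also counted in clusters that scored highest for luteal markers at 641 and 1678 CPM in the libraries labelled Fosl2cKO, and in the macrophage-marker cluster and stromal cells of those libraries at 91.7 and 51.5 CPM and 14.8 and 16.4 CPM. The effect of the condition was compared directly between atretic-like and mural-like GCs, where 0 of 14192 genes (0%) passed as an interaction in edgeR and 443 had an unadjusted p under 0.05. Against cumulus-like GCs 0 of 14602 genes passed and 386 had an unadjusted p under 0.05. Both counts were 0 with RLE scaling too, and no other tool was run for the interactions. Without Fosl2F/F replicate 2 the first count came to 399, and without Fosl2F/F replicate 1 the second came to 30, with a lone Fosl2F/F library in both fits.

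No other gene passed in edgeR, so the next genes are given by their values. Conditions did not overlap for 4216 of 14046 genes (30%), and the 19 genes that follow, with Plb1, are the 10 of smallest unadjusted p in each direction among them at a mean of at least 20 CPM. Each had an adjusted p of 0.999 in edgeR. With DESeq2, where 54 genes passed in all, 16 of these 19 passed, and with edgeR and no filter on low counts, where 318 passed, all 19 did. On the higher side of the libraries labelled Fosl2cKO stood Irx3, Zfp622, Rab5if, Cebpd, Ywhah, Scand1, Dnttip1, Rala and Lsamp. Cebpd, a C/EBP transcription factor, had 7.47, 13.9, 49.1 and 38.6 CPM, a log2 fold change of 1.99 ± 0.31 (SE). Irx3, an Iroquois homeobox factor of granulosa cells, had 7.65, 11.4, 32.0 and 40.2 CPM (1.87 ± 0.26). Rab5if had 33.6, 49.1, 116 and 156 CPM in the atretic-like cells and 40.7, 49.3, 131 and 185 CPM in the other granulosa cells, so both classes stood apart by condition in the same direction. The other granulosa cells also did so for Irx3, at 13.5, 20.4, 45.2 and 53.3 CPM, and for Cebpd, at 3.08, 4.51, 11.3 and 15.4 CPM.

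On the lower side stood Sfrp4, Ptgfr, Lrrfip1, Nupr1, Acta2, Akr1c18, Uchl1, Tpm2, Ckb and Lgmn. Sfrp4 had 429, 464, 83.7 and 128 CPM, a log2 fold change of -2.16 ± 0.28 (SE). Ptgfr, the prostaglandin F receptor through which the corpus luteum regresses, had 106, 145, 48.4 and 45.5 CPM (-1.49 ± 0.19), and within granulosa clusters 3.31, 17.0, 1.96 and 2.44 CPM. Akr1c18, which inactivates progesterone in the regressing corpus luteum, had 133, 39.2, 4.04 and 0.291 CPM. Nupr1, a stress-induced chromatin protein, had 291, 223, 89.5 and 94.4 CPM, and within granulosa clusters 125, 289, 129.8 and 107 CPM, where the conditions overlapped. Ptgfr and Sfrp4 were at a higher level in cells outside the granulosa clusters in every library, and Akr1c18 in all but Fosl2cKO replicate 2, where those cells held 0 CPM. Cells outside made up 12.9%, 34.6%, 27.4% and 19.1% of the atretic-like cells.

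**Figure D5:**
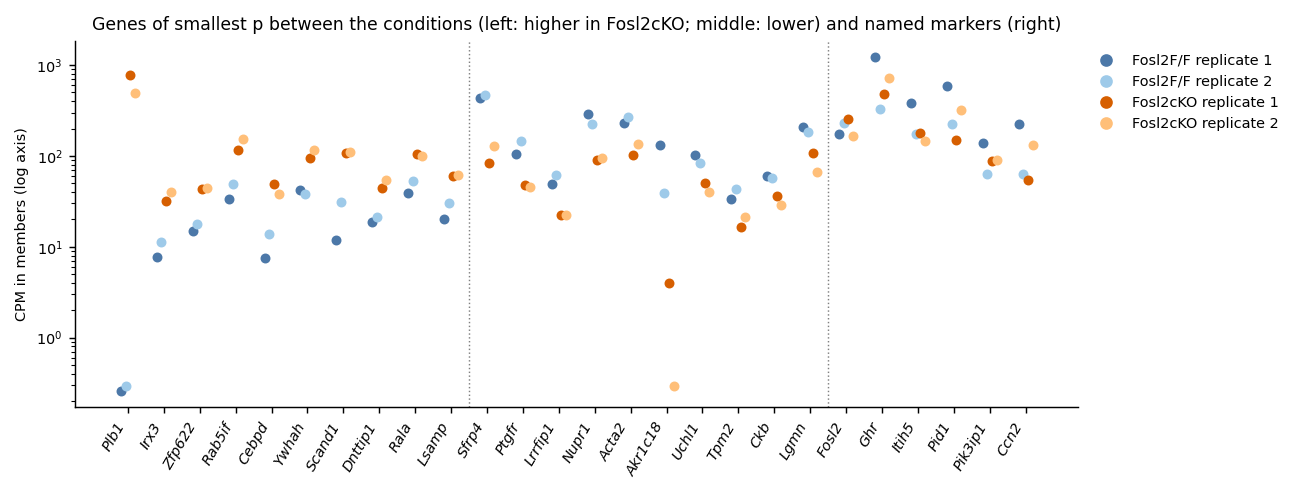
CPM in the atretic-like cells (log axis) for the genes of smallest p between the conditions and for Fosl2 and 5 markers, with 1 point per library. Plb1 lies under 1 CPM in both Fosl2F/F libraries and at 489.8 and 777 CPM in the libraries labelled Fosl2cKO, and is the one gene plotted that passed in edgeR.

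The 8 marker genes chose the cells in both conditions alike, so their differences between the conditions within the chosen cells are a description, with no test. The log2 fold change was -0.50 ± 0.66 (SE) for Ghr, -0.91 ± 0.60 for Pid1 and -0.90 ± 0.44 for Itih5, and lay between -0.60 and 0.47 for Kcnq5, Foxp2, Zfp385b, E330023G01Rik and Rgs13. Ccn2 stood at -0.76 ± 0.72 and Pik3ip1 at -0.32 ± 0.42. Without Fosl2F/F replicate 1, the library with most Ghr, the value for Ghr turned to 0.89.

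In the pathway lists 0 genes passed in either direction. The median log2 fold change of the inflammation and NF-kB list was 0.49 over 28 genes, beside -0.02 over all genes tested, and 9 of the 28 genes did not overlap between the conditions (32.1%, near the 30% of all genes). Cxcl1, a neutrophil chemokine, had 156, 174, 367 and 256 CPM (0.83 ± 0.24, SE) and Irf1, an interferon-response factor, 55.0, 139, 232 and 145 CPM (0.91 ± 0.43). The oxidative phosphorylation list had a median of -0.29 over 78 genes, of which 46 did not overlap between the conditions (59.0%). Atp5b, the ATP synthase beta subunit, had 906, 710.3, 654 and 804 CPM (-0.25 ± 0.30), with the conditions overlapping. Leaving out 1 library took the inflammation median from -0.15, without Fosl2cKO replicate 1, to 0.80, without Fosl2F/F replicate 2, and it was 0.09 without Fosl2F/F replicate 1. The oxidative phosphorylation median stayed between -0.35 and -0.20 in the same fits, and stood at -0.27 in mural-like and -0.38 in cumulus-like GCs of these libraries.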

How the data were processed

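The authors aligned 10x Genomics 3′ reads of 4 ovary libraries (v3 kit) with Cell Ranger to GRCm38 (mm10) and name Seurat 4.1.0 in the submitters' processing notes. They deposited, per library, whole-number UMI counts per gene and barcode, without normalization. The methods describe CellBender and uniquely mapped reads, and do not say whether the matrices used here had been corrected by it. All 4 libraries and 0 unused columns entered.

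Cells were selected by the stated rule. The members and gene lists were chosen with earlier results of these data known. Doublets were scored by Scrublet (scanpy 1.11.5, Python 3.11.15) and called at 0.8% per 1000 cells of a library, and were kept except in an alternative. Cells were clustered without integration (2000 variable genes, 30 components, 20 neighbours, Leiden resolution 1, igraph 0.11.9, 25 clusters). Clusters with over 50% doublet calls were set apart. A cluster was classed as granulosa if its granulosa identity score was at least 0.55 and every score for another cell type was under 0.25. Otherwise it took the other cell type of highest score if that was at least 0.25, and no class if not. "Other granulosa cells" are the cells of granulosa clusters that the rule did not select, and mural-like and cumulus-like GCs those of the granulosa cluster with the highest score for these markers. UMIs were summed per library and class, genes filtered by filterByExpr, libraries scaled by TMM and conditions compared with the edgeR 4.0.16 quasi-likelihood test (R 4.3.3), Benjamini-Hochberg adjusted, on all 4 libraries without covariates. Interactions had the library as a term. The threshold was a log2 fold change over 0.25 in size with an adjusted p under 0.1. The fits were tested on simulated data. For the interaction these had a smaller spread between libraries than the atretic-like cells, whose biological coefficient of variation was 0.27. That simulation therefore does not show what an interaction fit could find here. Ratios used CPM plus 1. Intervals and floors (3 counts) cover counting error only.

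Named genes are the rule markers, the genes the study labels for atretic cells, Fosl2 and Cyp19a1, the 20 highest and 10 lowest ratios at or above 50 CPM in the higher class, the genes past the threshold or, where fewer than 5 passed, the 10 of smallest p in each direction without overlap at a mean of at least 20 CPM, up to 4 genes of highest mean CPM per list, and the 5 most like Ghr. Inhbb and Hsd17b1, and the genes that compare cells inside and outside granulosa clusters or by marker number, were named after their values were seen. Among the 20 genes of highest ratio, 1 is not reported here. Coordinates are from GENCODE on GRCm38 and promoters from RefSeq GRCm38.p6. The alternatives, among them DESeq2 1.42.0, RLE scaling, no gene filter, stricter cell filters and leaving out each library, are given in the closing section.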

Additional observations from a re-analysis of the deposited data

How the results depend on the processing

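The count of genes that passed between the conditions was 1 with RLE scaling, without doublet calls, with over 2000 UMIs or under 5% mitochondrial UMIs per cell, with at least 5 marker genes or with at least 3 granulosa identity markers. It came to 318 with no filter on low counts (190 higher and 128 lower, of 22866 tested) and to 54 with DESeq2 (41 higher and 13 lower), where 1090 adjusted p were NA. Leaving out 1 library, which leaves a lone library assumed to vary like the other condition, gave 0 to 3 genes: 0 without Fosl2F/F replicate 1, 3 without Fosl2cKO replicate 1 and 2 without Fosl2cKO replicate 2. Chosen after the data had been seen, fits on the atretic-like cells of granulosa clusters or of the leading cluster alone gave 0, with an adjusted p for Plb1 of 0.120 and 0.235. Fewer cells entered these fits, and the cause was not tested. Over all its alternatives with edgeR or DESeq2 the adjusted p of Plb1 ran from 1.77e-114 to 0.235.

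With the replicate number as a block, 1 gene passed between the conditions and the difference in share was -0.13 points, from pair differences of -4.97 and 4.71 points (exact p = 1). The labels share only a number, and the deviations of same-numbered libraries correlated at -0.37 over genes. The crossed pairing, added after the data had been seen, gave 155 genes (108 higher and 47 lower). The block changed no other call.

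The interaction with mural-like GCs came to 24 genes with no filter and to 0 to 399 when 1 library was left out (399 without Fosl2F/F replicate 2). That with cumulus-like GCs came to 139 with no filter and to 0 to 30 (30 without Fosl2F/F replicate 1). The cause was not tested.

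The difference in share of -0.13 points turned to 4.25 as a share of granulosa cells and to 1.94 for all cells of the leading cluster, the latter added after the data had been seen. Leaving out 1 library gave -2.96 to 2.70 points, with 2.70 without Fosl2F/F replicate 1 and 1.88 without Fosl2cKO replicate 1. Every p in this design is at least 0.33.

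Of 512 alternative values of 32 named genes, 12 turned direction, none of a gene that had passed. Leaving out 1 library, the log2 fold change ran from -1.19 to 0.89 for Ghr, -1.57 to 0.60 for Ccn2, -0.84 to 0.51 for Pik3ip1, -1.23 to 0.095 for E330023G01Rik, -1.59 to 0.090 for Pid1 and -0.29 to 0.043 for Cyp19a1, each highest without Fosl2F/F replicate 1. It ran from -1.88 to 0.43 for Rgs13 and from -0.96 to 0.32 for Zfp385b, which were above 0 without Fosl2F/F replicate 1 (0.43 and 0.23) and without Fosl2cKO replicate 1 (0.043 and 0.32). For Fosl2 it ran from -0.35 to 0.24, with 0.10 without Fosl2F/F replicate 2 and 0.24 without Fosl2cKO replicate 2. A further 37 values passed only under an alternative, 21 with no filter (2 of them of marker genes, which chose the cells and are given no test) and 16 with DESeq2, and 3, all of Plb1, passed no longer. The summed UMIs of the atretic-like cells ran from 5687502 in Fosl2cKO replicate 1 to 11506035 in Fosl2F/F replicate 1.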
